A study of Mus musculus with 37 samples.

Results

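The 10 genes described here, Stab1, Stab2, Tie1, Tek, Cdh5, Kdr, Flt4, Emcn, Pecam1 and Plvap, are genes of vascular endothelium that cells lining the sinusoids of bone marrow and spleen are known to express. They were taken by name from the deposited table, which holds 35885 genes, and all 10 were found, with 1 row each. They were followed in all 37 libraries of the series, 19 from femoral bone marrow and 18 from spleen. All mice were wild-type C57BL/6N, and their age and sex are not given in the sources used here. Social defeat stress, in which an aggressive mouse attacks and subdues the test mouse, was applied once a day. Control mice had no defeat, and the other groups had 1, 4 or 10 defeats, or 10 defeats followed by 1 week of rest. In this order the marrow groups held 3, 4, 3, 5 and 4 libraries and the spleen groups 4, 2, 2, 6 and 4, described as biological replicates. Marrow was flushed from the femur and its cells were used for RNA, while RNA from spleen was taken from the harvested organ.

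Sinusoids are wide, thin-walled vessels through which blood cells pass between tissue and circulation. Their endothelium takes up waste molecules through scavenger receptors and, in marrow, forms a niche for blood-forming cells. Endothelial growth and survival depend on the VEGF receptors and on the angiopoietin receptor Tek with its partner Tie1, while cadherin and immunoglobulin-type adhesion molecules hold the cells together. Few of the 10 genes mark sinusoids alone. Cdh5, Tie1, Kdr and Pecam1 are used by blood vessels in general, Stab1 is also made by macrophages, and Pecam1 is also carried by platelets, megakaryocytes and leukocytes.

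Upstream sequences are shown for 4 of the genes as background, with both stabilins among them so that they can be set side by side. RefSeq start sites (GRCm38.p6) were matched for 7 of the 10, that is all but Cdh5, Pecam1 and Plvap. Each line gives 150 bases 5′ to 3′ on the strand of the gene, and ends 1 base (Stab1), 84 (Stab2), 4 (Kdr) or 12 (Emcn) before the RefSeq start. They lie at chr14:31168642-31168791 for Stab1 (minus strand), chr10:87008026-87008175 for Stab2 (minus), chr5:75978459-75978608 for Kdr (minus) and chr3:137340917-137341066 for Emcn (plus). Capitals mark matches, on either strand, to the ETS core AGGAAG, bound by a transcription factor family active in endothelium, or to the GC box GGGCGG of SP and KLF factors.
Stab1: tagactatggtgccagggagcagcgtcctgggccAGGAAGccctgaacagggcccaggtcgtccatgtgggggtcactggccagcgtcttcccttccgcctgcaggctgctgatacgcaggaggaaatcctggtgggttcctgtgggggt
Stab2: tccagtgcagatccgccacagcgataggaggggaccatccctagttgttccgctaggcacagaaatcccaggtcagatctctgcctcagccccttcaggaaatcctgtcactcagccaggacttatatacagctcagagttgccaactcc
Kdr: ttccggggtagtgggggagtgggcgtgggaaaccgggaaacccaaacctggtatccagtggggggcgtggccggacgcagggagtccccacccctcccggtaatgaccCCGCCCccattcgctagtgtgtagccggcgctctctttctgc
Emcn: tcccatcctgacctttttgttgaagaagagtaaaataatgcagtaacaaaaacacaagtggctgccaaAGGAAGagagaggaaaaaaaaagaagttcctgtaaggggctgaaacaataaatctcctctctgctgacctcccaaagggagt
Over the whole window of 250 bases before to 50 after the start, and on both strands, AGGAAG was present in 4 of 7 members (Stab1, Stab2, Tie1, Emcn) and in 35.4% of all 32851 promoters of the table. The longer CAGGAAG, which contains it, was present in Stab1 and Emcn and in 13.3% of promoters. GGGCGG was present in Kdr and Flt4 and in 35.7% of promoters, and the GATA sequence AGATAA in Tek alone and in 11.2%. The forkhead sequence TAAACA (13.4% of promoters) and the TATA sequence TATAAA (13.6%) were present in none of the 7. These are matches of letters, not measured binding.

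The deposited values are abundances scaled per library and per transcript length, here called values. Column totals were 763386 to 1073110 in marrow and 657918 to 2652290 in spleen. In spleen, 5 libraries stood apart: D6, D7, D9 and D10 after 10 defeats and D2 of the rested group. Their level relative to other spleen libraries fell with transcript length by 0.159 to 0.214 on the log2 scale per doubling, against a change of -0.107 to 0.177 in the other 13. Their totals were 1539150 to 2652290 against 657918 to 1015790, and haemoglobin genes held 45.4% to 58.8% of their values against 1.74% to 39.8%. Spleen results after 10 defeats or rest are therefore given with and without these 5 libraries. Fold changes are differences of log2(value + 1), with standard errors (SE) and with p-values of limma adjusted over all genes tested, called below 0.05. They understate changes of genes at low values. Levels of different genes are compared on the deposited scale, which is per length. The comparisons with control share the control libraries, so their results for a gene are not independent.

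In unstressed mice 9 of the 10 genes, all but Emcn, were called higher in spleen than in marrow. In control marrow the highest was Pecam1 (CD31), with 19.6, 24.2 and 21.9, above the range of every other member. Stab1 followed at 3.12 to 4.63, then Plvap at 2.22 to 5.70, Stab2 at 1.95 to 2.76, Tie1 at 1.30 to 1.68 and Cdh5 at 1.47 to 2.07. Kdr (0.508 to 0.883), Emcn (0.647 to 0.738), Flt4 (0.324 to 0.704) and Tek (0.278 to 0.433) lay lowest, and each of these overlapped its neighbour in the order. No member was listed at 0 in any library. In control spleen the order was led by Plvap, the protein of the diaphragms that span endothelial openings, with 90.6, 83.6, 89.5 and 91.4. Next came Pecam1 at 52.1 to 64.3 and Stab2, the receptor that clears hyaluronan, at 24.4 to 29.5. Cdh5 (8.55 to 11.4), Tie1 (9.28 to 11.9) and Stab1 (8.51 to 16.7) overlapped. Below them stood Kdr at 4.54 to 7.47, Tek at 2.96 to 3.56 and Flt4 at 2.44 to 3.80, and Emcn was lowest at 0.768 to 1.31.

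All 10 members had every control spleen library above every control marrow library, as did 35.1% of the 14513 genes tested in the model of both tissues. The 9 calls stand beside a background in which 27.1% of genes were called higher and 19.2% lower. Between the tissues the difference was 4.27 ± 0.55 (SE; adjusted p = 1.24e-07) for Plvap and 2.96 ± 0.36 for Stab2. For Stab1, the other stabilin, it was 1.25 ± 0.30 (adjusted p = 0.000864). Emcn, endomucin, a sialomucin of the venous and sinusoidal cell surface, differed by 0.29 ± 0.17 and was not called (adjusted p = 0.179). Organ, dissection and the cells used for RNA cannot be told apart in this comparison. In whole tissue, fewer endothelial cells and less RNA per cell cannot be told apart either, here or in any later comparison.

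**Figure D1:**
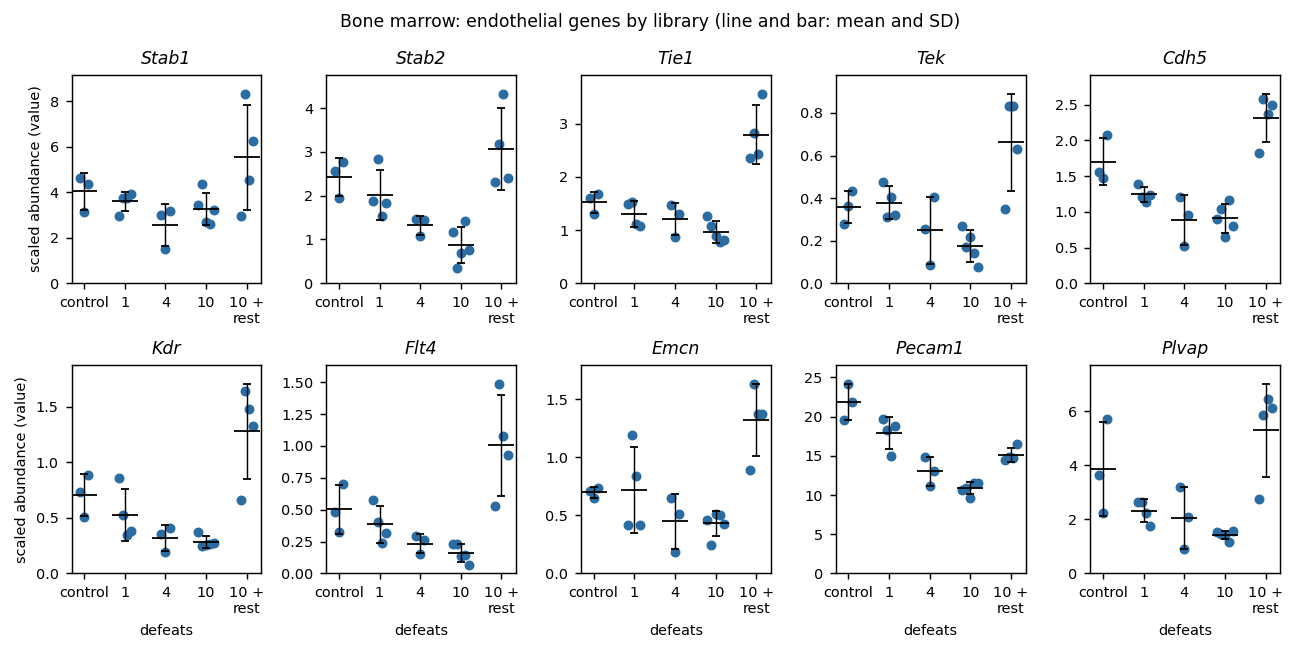
Values of the 10 genes in bone marrow, 1 point per library, by number of defeats (x axis) and scaled abundance (y axis, from 0), with a line for the group mean and a bar for the SD. After 10 defeats Pecam1 sits between 9.67 and 11.6 and after rest between 14.5 and 16.4, below the controls at 19.6 to 24.2, while Tie1 after rest (2.35 to 3.57) sits above its controls (1.30 to 1.68).

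After a single defeat no member passed the test in marrow. Limma called 0 of the 8 members tested (1 at an unadjusted p under 0.05), where 0.00804% of the 12442 genes were called in either direction. Among all genes, 535 had an unadjusted p under 0.05. Tek and Flt4 were below the filter, a value of at least 1 in at least 3 marrow libraries, and are described by their values. Kdr passed it only through 3 of the 4 rested libraries, and Emcn through 3 rested libraries and 1 library after a single defeat. Pecam1, with 19.7, 18.3, 15 and 18.8, differed from controls by -0.27 ± 0.11 (adjusted p = 0.904). The largest difference among the members was that of Plvap, at -0.50 ± 0.27.

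After 4 defeats limma called Pecam1, which leukocytes also carry, and the junction gene Cdh5 lower in marrow. These were 2 of 8 members, and none was called higher. Of all genes, 13% were called lower and 7.07% higher, which is 1613 and 880 genes, against 833 and 1090 with quantile normalization. Of the members, quantile normalization and equal totals each called only Pecam1. Pecam1, an adhesion molecule at endothelial contacts, had 14.8, 11.1 and 13 and changed by -0.71 ± 0.12 (adjusted p = 0.00225). Cdh5, VE-cadherin, the adhesive protein of endothelial junctions, had 1.20, 0.515 and 0.950 against 1.56, 1.47 and 2.07 in controls. It changed by -0.53 ± 0.15 (adjusted p = 0.0223), and its call was lost without control C4 (-0.43) or library D12 (-0.38). Libraries did not overlap with controls for these 2 and for Stab2, Kdr and Flt4, 5 of the 10. Of the 8 members tested these were 4, where 28.8% of the genes tested had every library lower. Library D12 was the lowest of its group for each of the 10 members. Its haemoglobin share was 15.2%, with 19.1% in D14 and 40.0% in D11, against 38.7% to 44.3% in controls. The part of these differences in the result was not tested.

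After 10 defeats most of the endothelial genes stood below control in marrow. In 9 of the 10 members, all but Stab1, every one of the 5 libraries was below every control. Of the 8 members tested this held for 7, where it held for 29.8% of the 12442 genes tested. Limma called 6 of the 8 tested members lower and none higher, where 28.3% of genes were called lower and 17.5% higher, that is 3517 and 2177 genes. The median change of the 8 was -0.45, against -0.13 over all genes tested. With quantile normalization, which brings the median of all genes to 0.01, the median of the 8 was -0.22 and 3 were called lower, Pecam1, Stab2 and Plvap. Over all genes it called 2323 lower and 2725 higher. The calls of Pecam1 and Stab2 held under every alternative setting tried.

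Of the scavenger receptors, Stab2 was called lower and Stab1 was not. Stab2 had 1.16, 0.359, 0.692, 1.42 and 0.763 after 10 defeats, against 2.57, 1.95 and 2.76 in controls. All 5 libraries were lower, and the change was -0.89 ± 0.19 (adjusted p = 0.00178). Against the libraries with a single defeat it was -0.69 ± 0.18 (adjusted p = 0.00557). Stab1 had 3.42, 4.37, 2.69, 2.58 and 3.20 against 4.63, 3.12 and 4.34, so the groups overlapped. Its difference of -0.25 ± 0.23 was not called (adjusted p = 0.388) and was 0.03 with quantile normalization. Whether the changes of the 2 receptors differ was not tested. Within the groups, the deviations of Stab1 and Stab2 from their group means correlated weakly over the 19 marrow libraries (r = 0.08).

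The receptors of angiopoietin and VEGF lay low in all 5 libraries. Tie1, the partner receptor that tunes Tek, had 1.26, 1.07, 0.891, 0.773 and 0.823, below every control (1.30 to 1.68). It changed by -0.37 ± 0.13 (adjusted p = 0.0333). Kdr, VEGF receptor 2, the main signalling receptor for VEGF-A, had 0.375 in library D5 and 0.244 to 0.273 in the other 4, against 0.733, 0.508 and 0.883 in controls. It changed by -0.41 ± 0.15 (adjusted p = 0.0353). Both calls were near the threshold, and each was lost with quantile normalization, equal totals, median-ratio rescaling or removal of the length trend. The call of Tie1 was lost when any 1 of C1, C4, D7, D9 or D10 was left out, with changes of -0.35 to -0.32, and that of Kdr when any 1 of C1, C4, D6, D7, D9 or D10 was left out, with changes of -0.41 to -0.34. Flt4, VEGF receptor 3, which binds VEGF-C and marks lymphatic and sinusoidal endothelium, had 0.230, 0.231, 0.136, 0.147 and 0.0642 against 0.480, 0.324 and 0.704. Tek had 0.269, 0.170, 0.217, 0.141 and 0.0742 against 0.278, 0.364 and 0.433. Without the filter Flt4 changed by -0.37 ± 0.13 (adjusted p = 0.0478) and Tek by -0.21 ± 0.10 (adjusted p = 0.153). With the longest transcript of each gene as its length, these values stand for about 5.24 to 38.7 reads of Tek and 6.17 to 44.9 of Flt4 per library, so they are the least precise.

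Junction and surface genes were lower as well. Pecam1 had 10.7, 10.9, 9.67, 11.5 and 11.6 against 19.6, 24.2 and 21.9, with the 5 libraries close together and far from controls. It changed by -0.95 ± 0.10 (adjusted p = 5.58e-05), and by -0.67 ± 0.10 against a single defeat (adjusted p = 0.000188). Pecam1 and Stab2 were the 2 of 8 members called lower in that comparison with a single defeat, where 21.3% of genes were called lower and 17.6% higher. Cdh5 had 0.895, 1.05, 0.649, 1.16 and 0.798 against controls at 1.47 to 2.07, and changed by -0.50 ± 0.13 (adjusted p = 0.0067). Plvap had 1.52, 1.47, 1.41, 1.15 and 1.55 against 3.63, 2.22 and 5.70. The 5 libraries spanned a narrow range and the controls a wide one, and the change was -0.94 ± 0.26 (adjusted p = 0.00741). Emcn had 0.463, 0.248, 0.514, 0.5 and 0.427 against 0.713, 0.647 and 0.738, with every library lower, yet its change of -0.25 ± 0.16 was not called (adjusted p = 0.197). Without control C4, the highest control for Cdh5, Plvap and 6 of the other members, only Pecam1 (-0.94) and Stab2 (-0.82) were called, and Cdh5 changed by -0.40 and Plvap by -0.68.

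After 1 week of rest the endothelial genes of marrow stood well above their level after 10 defeats. In 9 of the 10 members, again all but Stab1, each of the 4 rested libraries was above each of the 5 libraries after 10 defeats. Of the 6 members that met the filter without the rested libraries this held for 5, where it held for 12.7% of the genes that passed the filter. Of the 6 members that met the filter without the rested libraries, limma called 5 higher, all but Stab1, where 13.8% of genes were called higher and 7.91% lower. Those 5 were called with quantile normalization too. Kdr and Emcn, which met the filter through rested libraries, and Tek and Flt4 were read from the fit without the filter. There 9 of all 10 members were called higher, where 6.68% of 23930 genes were, with a median of 0.78 for the 10 and 0.02 over all genes. That background includes genes near 0 that the filter removes. With the filter the share was 13.8% and the median over all genes 0.09. With the filter, the count of all genes was 1716 higher and 984 lower, against 896 and 1085 with quantile normalization and 3055 and 209 with equal totals. Equal totals moved the median of all genes from 0.09 to 0.27. This comparison and the one of 10 defeats with control share the same 5 libraries, so that the opposite signs are not independent of each other.

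**Figure D2:**
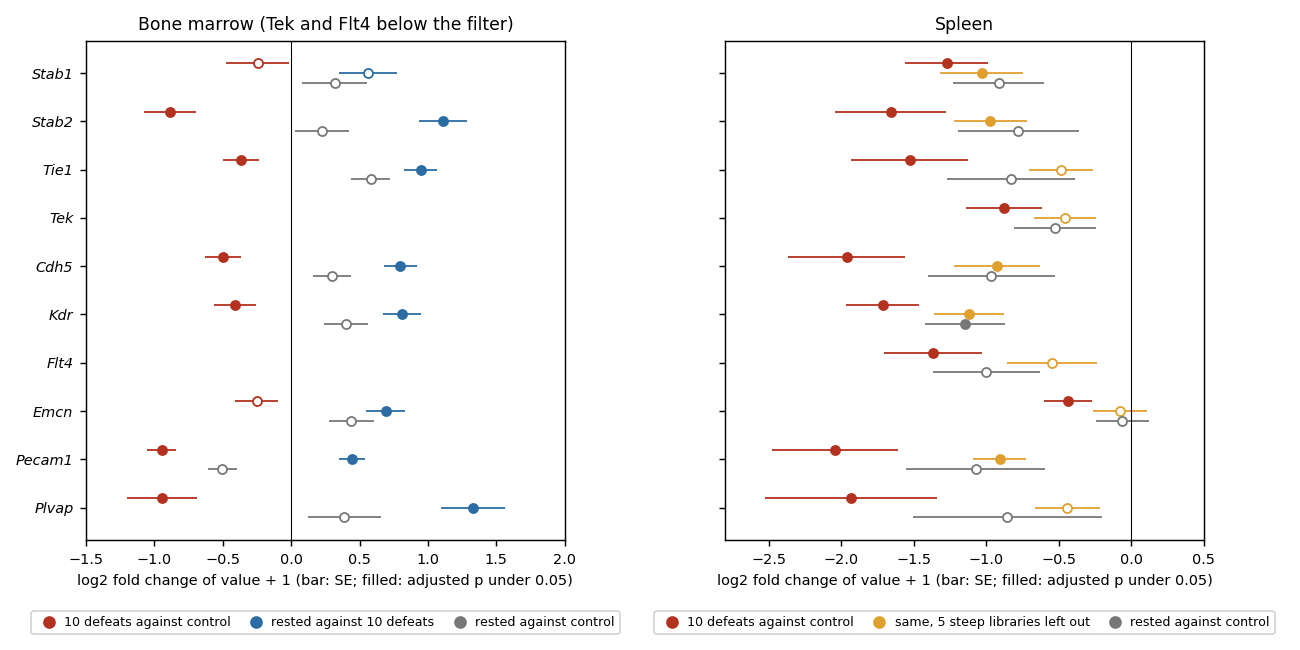
Difference of log2(value + 1) for each gene (x axis, bars are SE) in bone marrow (left) and spleen (right), with filled points for an adjusted p under 0.05. In marrow the points for rested against 10 defeats lie right of 0 for each of the 8 genes shown, of which Kdr and Emcn met the filter through rested libraries. In spleen, leaving out the 5 libraries with steep length slopes leaves 5 filled points, with Pecam1 moving from -2.04 to -0.91 and Plvap from -1.93 to -0.44.

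On the scale of log2(value + 1) the largest step was that of Plvap, from 1.15 to 1.55 after 10 defeats to 2.75, 5.87, 6.46 and 6.11 after rest. Rested library D1 was apart from the other 3, and the step of Plvap was 1.33 ± 0.24 (adjusted p = 0.00212). This scale shrinks the steps of members below 1. In proportion Flt4 and Kdr rose more, with means going from 0.162 to 1.005 and from 0.281 to 1.28, against 1.42 to 5.29 for Plvap. Stab2 had 2.32, 3.19, 4.33 and 2.40 and rose by 1.11 ± 0.18 (adjusted p = 0.00127). Tie1 had 2.35, 2.83, 2.43 and 3.57 and rose by 0.95 ± 0.12 (adjusted p = 0.000705). No gene of the table had a smaller adjusted p in this comparison. Kdr had 0.663, 1.64, 1.48 and 1.33 and rose by 0.81 ± 0.13 without the filter (adjusted p = 0.00267). Cdh5 had 1.83, 2.58, 2.37 and 2.49 and rose by 0.80 ± 0.12 (adjusted p = 0.0011). Rested library D1 was again the lowest for Kdr and Cdh5, and also for Stab1, Stab2, Tie1, Tek, Flt4, Emcn and Pecam1, that is for each of the 10 members.

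Emcn had 0.893, 1.63, 1.37 and 1.38 and rose by 0.69 ± 0.14 without the filter (adjusted p = 0.00707). Pecam1 had 14.5, 14.9, 14.7 and 16.4 and rose by 0.44 ± 0.10 (adjusted p = 0.00618), the smallest step of those called. Stab1 had 2.95, 8.33, 4.55 and 6.26, and with library D1 inside the range after 10 defeats its difference of 0.56 ± 0.21 was not called (adjusted p = 0.0629). Without D1 it was 0.78 and called. Flt4 had 0.528, 1.49, 1.08 and 0.925, and Tek 0.349, 0.833, 0.834 and 0.631. Without the filter both were called, at 0.77 ± 0.12 for Flt4 (adjusted p = 0.0023) and 0.49 ± 0.09 for Tek (adjusted p = 0.00625). Stab2, Tie1, Cdh5, Pecam1 and Plvap kept their calls when any 1 library of either group was left out.

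Set directly against controls, no gene of marrow was called after rest. Limma called 0 of 8 members and 0% of the 12442 genes. At an unadjusted p under 0.05 stood 5 of the 8 members and 1768 of the 12442 genes. The 8 include Kdr and Emcn, which met the filter through rested libraries and are left out of the next counts. The smallest adjusted p among members was that of Pecam1 (0.0951), with a difference of -0.50 ± 0.11. Its rested libraries (14.5 to 16.4) were all below controls, as in 1543 of the 12442 genes. Of the 6 members that met the filter without the rested libraries, the other 5 had positive differences. Every rested library was above every control for Tie1 (0.58 ± 0.14, adjusted p = 0.112), as in 1210 of the 12442 genes. With library weights, which give less weight to libraries far from their group, 20.3% of genes were called. Of the 6 members that met the filter without the rested libraries, 5 were then called, Pecam1 lower at -0.56 and 4 higher, among them Plvap at 0.78. Pecam1 also lay differently to Cdh5. The ratio of the value of Pecam1 to that of Cdh5 was 10.6 to 16.5 in controls, 9.89 to 14.9 after 10 defeats and 5.75 to 7.90 after rest, with no overlap of the rested range with either. The same ratio of Plvap was 1.52 to 2.75, 0.992 to 2.17 and 1.5 to 2.72, which overlap. Both were picked from the ratios of the other members to Cdh5, and how many genes separate in this way was not computed. The ratio of Pecam1 uses the same values as the differences above.

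Other cell types moved in the same marrow libraries, and their part in the endothelial results was not tested. Of all genes tested, 28.3% were called lower and 17.5% higher after 10 defeats. After rest, against 10 defeats, 13.8% were called higher and 7.91% lower. Tissue macrophage markers, relevant to Stab1, had 10 of 13 genes lower after 10 defeats (Mertk -0.77 ± 0.18, Timd4 -0.83 ± 0.22), and 1 of 13, Mertk, higher after rest (0.51 ± 0.17). Their summed level over 15 genes was 345 to 495 in controls, 236 to 320 after 10 defeats and 272 to 396 after rest. Megakaryocyte and platelet markers, relevant to Pecam1, had 5 of 12 lower after 10 defeats (Gp1ba -1.18 ± 0.33). After rest 11 of 12 were higher (Itgb3 1.43 ± 0.20, Gp1ba 2.13 ± 0.30). The summed level of these 12 genes was 261 to 385 in controls, 109 to 262 after 10 defeats and 420 to 1142 after rest. Neutrophil markers went the other way, with 9 of 10 higher after 10 defeats and 8 of 10 lower after rest (Camp 1.41 ± 0.20 and -0.76 ± 0.18). The haemoglobin share was 38.7% to 44.3% in controls and 11.1% to 26.8% after 10 defeats, lower in every library. After rest it was 16.1%, in library D1, to 39.1%. At most 1 of the macrophage markers and none of the megakaryocyte markers was listed at 0 in any library of these groups.

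In marrow, calls in the other endothelial lists were mostly lower after 10 defeats and higher after rest, except in the arterial list. Over all genes tested, 28.3% were called lower and 17.5% higher after 10 defeats, and 13.8% higher and 7.91% lower after rest. Of 16 other pan-endothelial genes tested, 10 were lower after 10 defeats and none higher, with a median of -0.52. They included Heg1 (-0.95 ± 0.11, adjusted p = 6.57e-05), a partner of endothelial junctions, S1pr1 (-2.11 ± 0.26), a sphingosine 1-phosphate receptor that lymphocytes also carry, and Egfl7 (-0.53 ± 0.12). After rest 11 of 16 were higher and none lower, with a median of 0.65, led by Shank3 (1.08 ± 0.18), Ramp2 (1.05 ± 0.18), a subunit of the adrenomedullin receptor, Eng (1.03 ± 0.19), a coreceptor of TGF-beta, and Robo4 (0.77 ± 0.15). Junction and adhesion genes had 4 of 7 lower and 1 higher after 10 defeats, the higher one being Mcam (1.47 ± 0.30). After rest 3 of 7 were higher, Esam (1.39 ± 0.23), Gja1 (1.06 ± 0.22) and the tight junction gene Cldn5 (0.83 ± 0.17). Scavenger and sinusoidal uptake genes had 5 of 8 lower (Dnase1l3 -0.93 ± 0.16, the lectin Clec4g -0.72 ± 0.23) and 3 of 8 higher after rest (Clec4g 0.75 ± 0.21). Arterial genes were mixed, with 2 of 4 higher (Bmx 0.77 ± 0.15, Ly6c1 0.62 ± 0.14) and 1 lower, Cxcl12, after 10 defeats. No list here was tested as a set.

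The ligands and regulators of these receptors were mostly too low to test in marrow or did not pass. Of the VEGF ligands and coreceptors, 5 of 8 could be tested, and Vegfb alone changed, by -0.59 ± 0.15 after 10 defeats (adjusted p = 0.00399) and by 0.53 ± 0.13 with rest. Of the angiopoietin and Tie regulators 2 of 6 could be tested. Angpt1, the ligand that activates Tek, fell by 0.82 ± 0.16 after 10 defeats (adjusted p = 0.00109) and rose by 1.15 ± 0.15 with rest (adjusted p = 0.000705). Adam17, a protease that sheds proteins from the cell surface, had the opposite signs (0.47 ± 0.10 and -0.39 ± 0.09). Perivascular stroma, a known source of Angpt1 in marrow, had 5 of 11 genes lower after 10 defeats and 6 of 11 higher after rest. Among them were the leptin receptor gene Lepr (-1.002 ± 0.20 and 1.35 ± 0.18), Adipoq (-1.63 ± 0.37 and 1.47 ± 0.34) and Kitl, the stem cell factor gene (-0.64 ± 0.17 and 0.85 ± 0.16). The shares over all genes were 28.3% lower after 10 defeats and 13.8% higher after rest. Cxcl12, a chemokine that retains stem cells and is made by both stroma and endothelium, changed by -1.62 ± 0.45 and 2.02 ± 0.42. Stem and progenitor markers had 5 of 8 lower and then 5 of 8 higher (Slamf1 -0.83 ± 0.23 and 1.30 ± 0.21).

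**Figure D3:**
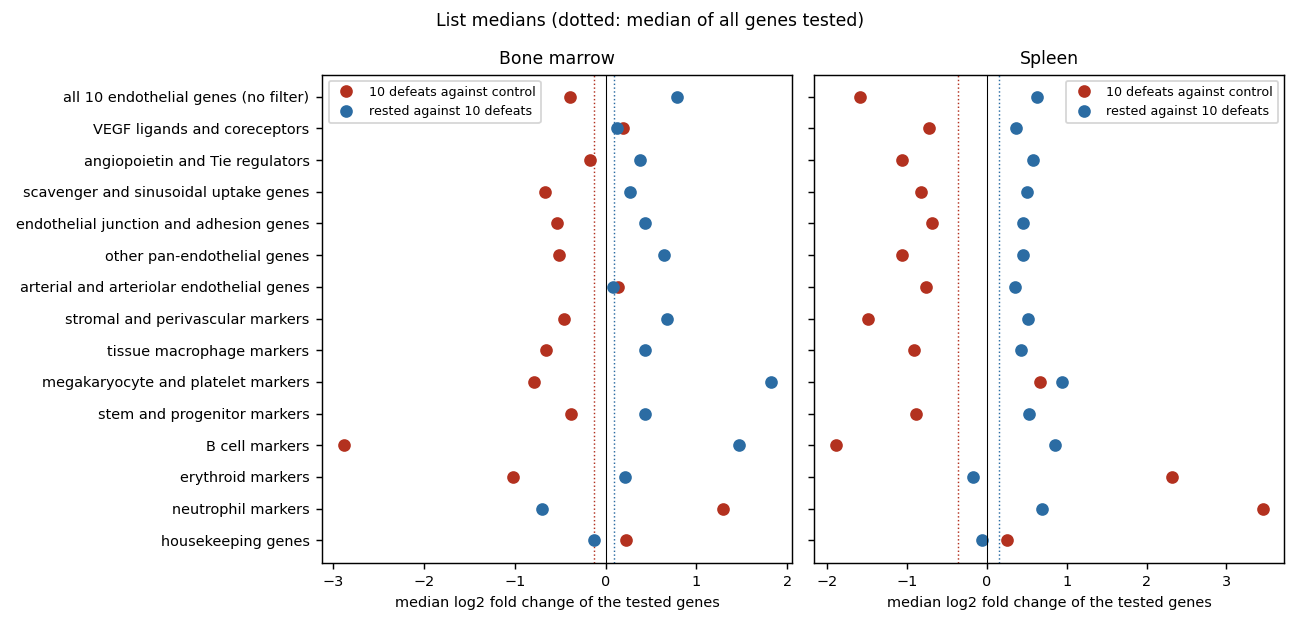
Median difference of log2(value + 1) of the tested genes of each list (x axis) in bone marrow and spleen. The 10 endothelial genes come from the fit without the filter, while the dotted lines are medians of all genes tested with it. In marrow the 10 endothelial genes have a median of -0.39 after 10 defeats and 0.78 after rest, and the megakaryocyte list has the highest median after rest (1.82).

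In spleen no member passed the test after 1 or 4 defeats. Limma called 0 of 10 after 1 defeat, where 0.688% of 13945 genes were called, and 0 of 10 after 4, where 0.043% were. No member had an unadjusted p under 0.05 in either, where 2104 and 1314 of all genes had. Plvap had 56.5 and 58.2 after 1 defeat, both below the controls (83.6 to 91.4), and 129 and 83.7 after 4 defeats. The change of Plvap after 1 defeat was -0.62 ± 0.80, with the spread shared over all 5 spleen groups. In a fit of these 2 groups alone it was -0.62 ± 0.11 and called (adjusted p = 0.0227), the 1 member called there, where 5.02% of genes were called lower. Slopes with transcript length were 0.157 and 0.177 after 1 defeat, against 0.0350 to 0.137 in controls. Haemoglobin shares were 1.82% and 2.19%, against 10.6% to 23.1%. Plvap has the shortest transcript of the 10, and the part of these differences in its call was not tested.

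After 10 defeats all 10 genes were lower in spleen, but the size and the number of calls rested on libraries that stood apart. Limma called 10 of 10 lower, where 41.9% of genes were called lower and 16.8% higher, that is 5848 and 2348 genes. The median was -1.59, against -0.36 over all genes tested. In 8 of 10 members, all but Tie1 and Emcn, every library was below every control, as in 25.8% of genes. Equal totals moved the median of all genes to -0.82 and median-ratio rescaling to -0.04, and 10 and 9 members were then called lower. Over all genes these settings called 7234 and 3785 lower and 788 and 3647 higher. Of the 6 libraries, 4 were among the 5 with steep length slopes. Without those 5 libraries, 2 libraries after 10 defeats remained, D4 and D5, and 5 of 10 members were called lower, where 15.2% of genes were. The medians were then -0.73 for the members and -0.22 for all genes.

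**Figure D4:**
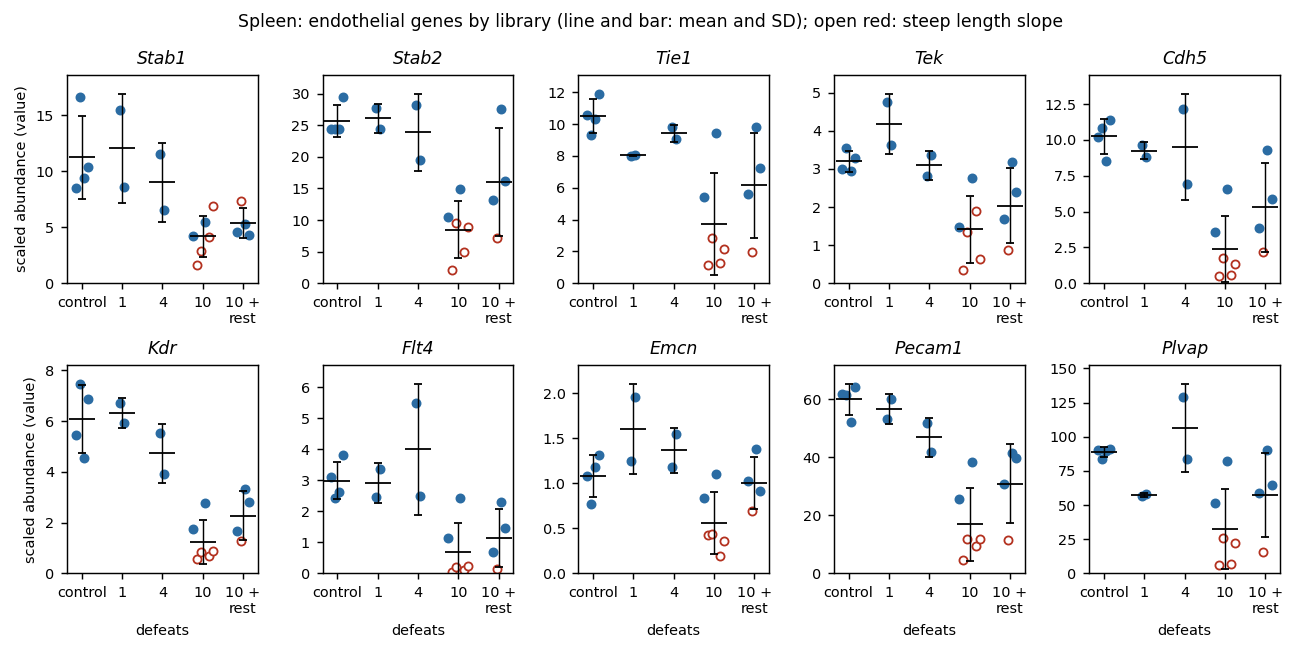
Values of the 10 genes in spleen, 1 point per library, by number of defeats (x axis) and scaled abundance (y axis, from 0), with a line for the group mean, a bar for the SD and open red points for the 5 libraries with steep length slopes. After 10 defeats the open points of Plvap lie at 6.52 to 26.2 and the other 2 libraries at 51.3 and 82.2, against 83.6 to 91.4 in controls.

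Among the receptors, Kdr alone was called with and without the steep libraries. Kdr had 2.78 in D4, 1.75 in D5 and 0.555 to 0.888 in the 4 steep libraries, against 5.45, 7.47, 4.54 and 6.88 in controls. It changed by -1.71 ± 0.25 (adjusted p = 0.0002), and by -1.12 ± 0.24 (adjusted p = 0.00941) without the steep libraries. Flt4 had 2.42 in D4, 1.15 in D5 and 0.0508 to 0.242 in the others, against 2.44 to 3.80 in controls. Its change of -1.37 ± 0.34 (adjusted p = 0.00369) became -0.55 ± 0.31 and was not called. Tie1 had 9.43, 5.45 and then 1.13 to 2.86 against 9.28 to 11.9, and changed by -1.53 ± 0.40, or -0.49 ± 0.22 and not called without the steep libraries. Tek had 2.77, 1.47 and 0.359 to 1.89 against 2.96 to 3.56, and changed by -0.88 ± 0.26, or -0.46 ± 0.22 and not called. Library D4 was thus close to or inside the control range for Flt4, Tie1 and Tek, and below it for Kdr.

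Both stabilins were lower in spleen with and without the steep libraries. Stab2 had 15 in D4, 10.5 in D5 and 2.17 to 9.56 in the others, against 24.5, 24.4, 24.5 and 29.5. It changed by -1.66 ± 0.38 (adjusted p = 0.00242), and by -0.97 ± 0.25 (adjusted p = 0.0189) without the 5. Stab1 had 5.48, 4.19 and 1.66 to 6.87 against 8.51 to 16.7, and changed by -1.27 ± 0.29 (adjusted p = 0.00221), or -1.03 ± 0.29 (adjusted p = 0.0249). In Stab1 the steep library D10 (6.87) lay above both D4 and D5. Stab1 has a transcript of 7999 bases, second in length to that of Stab2 among the 10, and with the length trend removed its change was -0.70 and not called. Tissue macrophage markers had 7 of 15 genes lower in spleen after 10 defeats (Siglec1 -1.82 ± 0.41), near the 41.9% of all genes called lower. Without the 5 libraries 0 of 14 were lower, where 15.2% of all genes were. The part of these markers was not tested.

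Of the junction and surface genes, Pecam1 and Cdh5 kept their calls. Pecam1 had 38.3, 25.7 and 4.63 to 11.8 against 52.1 to 64.3, and changed by -2.04 ± 0.44 (adjusted p = 0.00163), or -0.91 ± 0.18 (adjusted p = 0.00727) without the 5. Cdh5 had 6.57, 3.57 and 0.538 to 1.78 against 8.55 to 11.4, and changed by -1.96 ± 0.40 (adjusted p = 0.00128), or -0.93 ± 0.30 (adjusted p = 0.0407). Plvap had 82.2, 51.3 and 6.52 to 26.2, and its change of -1.93 ± 0.59 (adjusted p = 0.012) became -0.44 ± 0.22 and was not called. Emcn had 1.10, 0.839 and 0.199 to 0.437 against 0.768 to 1.31, and its change of -0.44 ± 0.17 (adjusted p = 0.0323) became -0.08 ± 0.19. The haemoglobin share was 11.5% in D4 and 24.5% in D5, against 10.6% to 23.1% in controls and 45.4% to 52.1% in the 4 steep libraries. Erythroid markers had 9 of 10 genes higher after 10 defeats (Epor 3.05 ± 0.34) and B cell markers 7 of 7 lower, or 5 of 10 and 2 of 7 without the 5 libraries. With all libraries 16.8% of all genes were called higher and 41.9% lower. Their part in the endothelial values was not tested.

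**Figure D5:**
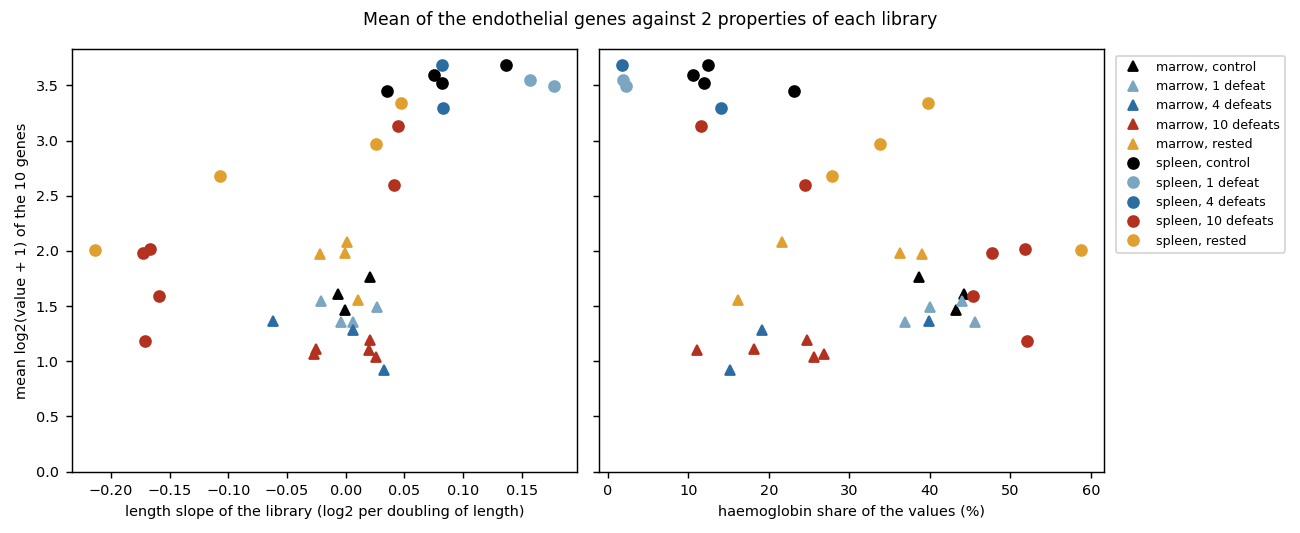
Mean log2(value + 1) of the 10 genes in each library (y axis) against the slope with transcript length (left, log2 per doubling of length) and the haemoglobin share of the values (right, %), with triangles for marrow and circles for spleen. The 5 spleen libraries with slopes of -0.214 to -0.159 have means of 1.19 to 2.01, below the other spleen libraries at 2.60 to 3.69.

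Other endothelial genes of spleen were mostly lower after 10 defeats too, beside a background of 41.9% of all genes called lower and 16.8% higher. Of 23 pan-endothelial genes tested 16 were lower (Cd93 -1.44 ± 0.27, Shank3 -1.20 ± 0.23) and 1 was higher, Tal1 (3.88 ± 0.42), a factor that erythroid cells also use. VEGF ligands and coreceptors had 5 of 7 lower, with Flt1, VEGF receptor 1, at -1.44 ± 0.24 and Nrp1 at -1.70 ± 0.37. Angiopoietin and Tie regulators had 4 of 5 lower, with Ptprb, a phosphatase that acts on Tek, at -1.58 ± 0.26 and Angpt2 at -0.99 ± 0.18. Stromal and perivascular markers had 12 of 14 lower, with Dcn at -1.42 ± 0.22, and markers of spleen stroma and white pulp vessels 8 of 8, with Madcam1 at -1.65 ± 0.30. Without the 5 steep libraries fewer were called, and 15.2% of all genes were called lower. Pan-endothelial genes then had 2 of 23 lower, below that share, and 1 higher. VEGF ligands and coreceptors had 2 of 7 lower, angiopoietin and Tie regulators 3 of 5, stromal markers 7 of 14 and spleen stroma 5 of 8.

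After 1 week of rest the mean of each of the 10 genes in spleen lay between those of control and 10 defeats, with wide spread. Limma called 1 of 10 members lower than control, where 4.24% of genes were lower and 3.02% higher. That member was Kdr, with 1.66, 1.27, 3.32 and 2.81 against 4.54 to 7.47, a change of -1.15 ± 0.28 (adjusted p = 0.0239). The call was lost when any 1 of C1, C2, C4, D1 or D2 was left out, with changes of -1.19 to -0.99. Without the 5 steep libraries, of which D2 is the only rested one, Kdr (-0.99), Stab1 (-1.05) and Pecam1 (-0.68) were called lower, 3 of 10 against 11% of genes. Against 10 defeats 0 of 10 members were called, where 0.567% of genes were called. An unadjusted p under 0.05 was found for 5 members and for 3081 of the 13945 genes. All 10 differences were positive, from 0.35 for Tek to 1.08 for Plvap, and the groups overlapped for each member. Without the 5 steep libraries they were -0.18 (Flt4) to 0.50 (Stab2), and none was called. Leaving out each library in turn gave no call except without D4, when 4 were called higher, Cdh5 (1.28), Emcn (0.47), Kdr (0.73) and Pecam1 (1.25). In that fit 10.8% of genes were called higher. With library weights 9 members were called higher, where 41.6% of genes were.

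Whether the effect of 10 defeats differed between tissues was tested in the model of all 37 libraries. On the scale of log2(value + 1) the change was more negative in spleen for 5 of 10 members, where 27% of genes were more negative and 16.1% less so. The differences, spleen minus marrow, were -1.46 ± 0.45 for Cdh5 (adjusted p = 0.0103), -1.30 ± 0.30 for Kdr (adjusted p = 0.000957), -1.16 ± 0.45 for Tie1 (adjusted p = 0.0387), -1.03 ± 0.38 for Stab1 (adjusted p = 0.0304) and -1.0015 ± 0.39 for Flt4 (adjusted p = 0.0374). Without the 5 steep spleen libraries, 1 of 10 was called, Kdr at -0.71 ± 0.26 (adjusted p = 0.0406), against 17.8% of genes, and Tie1 was at -0.12 ± 0.24. In marrow the mean of Kdr went from 0.708 in controls to 0.281 after 10 defeats, and that of Flt4 from 0.503 to 0.162. In control spleen their means were 6.09 and 2.99. Changes at values below 1 are shrunk on this scale, so part of their difference between tissues can come from it. With a pseudocount of 0.1 and no filter no member was called. For the step from 10 defeats to rest, 0 of 10 members differed between tissues, where 10.2% of genes did. No member had an unadjusted p under 0.05, where 3706 of the 14513 genes had. Without the steep libraries the step was more negative in spleen for 3 of 10, Plvap (-1.22 ± 0.37), Flt4 (-0.95 ± 0.31) and Tie1 (-0.91 ± 0.24), against 7.6% of genes. The difference in step for Plvap thus went from -0.25 to -1.22 when these libraries were left out.

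Across libraries most pairs of members varied together, with a higher median correlation in spleen than in marrow. For the deviations from group means, the 45 pairs of members had a median r of 0.54 over the 19 marrow libraries and of 0.80 over the 18 spleen libraries, or 0.70 over the 13 that remain without the 5 steep ones. These are descriptions, since libraries share depth, length slope and cell mixture across genes. Pairs of other genes were not examined, so the medians have no background beside them. In marrow the closest pair was Kdr and Flt4, both VEGF receptors (r = 0.91), and Pecam1 stood farthest from the rest, with a median of 0.21 over its 9 pairs. In spleen Tie1 and Plvap were closest (r = 0.96), and Stab1 stood farthest, with a median of 0.24 and a lowest value of -0.20 with Emcn. Without the steep libraries the closest pair was Stab2 and Cdh5 (r = 0.95). Emcn then had the lowest median (0.25), and the lowest value was -0.59, for Stab1 and Emcn. The genes whose deviations followed the mean of the 10 most closely were Pole (r = 0.91), Mmp14 (0.86), Lgalsl (0.86), Atp1b2 (0.85) and Pccb (0.84) of 10470 genes in marrow. In spleen they were Trappc9 and Man2b1 (0.99 each) and Cdc42ep1, Abcg1 and Rxra (0.98 each) of 11277. Without the steep libraries the best placed of these 5, Man2b1, ranked 17 of 11403, and Ehd2 (0.98), Ywhaz, Csf1, Eng and Mark4 (0.97 each) came first. Among these, Mmp14 encodes a membrane-type matrix metalloproteinase and Abcg1 a sterol transporter.

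The genes themselves lie on 7 chromosomes of GRCm38, each protein-coding in GENCODE M21. Stab1 is at chr14:31139013-31168641 and Stab2 at chr10:86841198-87008025. Tek (chr4:94739289-94874976) and Tie1 (chr4:118471191-118490061) share a chromosome, as do Flt4 (chr11:49609263-49652739) and Pecam1 (chr11:106654217-106750628), and Cdh5 (chr8:104101625-104144511) and Plvap (chr8:71497765-71511752). Kdr is at chr5:75932827-75978458 and Emcn at chr3:137341067-137432185. Their longest transcripts run from 1987 bases (Plvap) to 8228 (Stab2).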

How the data were processed

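RNA was extracted with the NucleoSpin RNA Plus kit and sequenced from stranded mRNA libraries, per the labels' protocols. The submitters' processing notes name kallisto 0.46.1, sleuth and GRCm38 without giving their roles. The authors deposited 1 table of a signal per gene and library, an abundance scaled per library and transcript length; the sources used here do not name the step that set the scale. Depth is not given, and 59.6% to 75.5% of low values of single-transcript genes came within 0.1 of a whole read, so no count test was run. Read numbers in the text are estimates from transcript length.

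Values were tested as log2(value + 1) with limma 3.58.1 in R 4.3.3 (trended and robust). The 5 groups of a tissue shared a fit, and all 37 libraries a further one for both tissues. Genes needed a value of at least 1 in at least 3 marrow libraries, or 2 in spleen and in both tissues. P-values were adjusted by Benjamini-Hochberg over all genes tested, with a threshold of 0.05. The procedure was tested on simulated data.

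Quantile normalization, median-ratio rescaling, equal totals, removal of the length trend, library weights, another pseudocount, no filter, fits of only the groups compared and leaving out each library were tried. Leaving out the 5 steep spleen libraries was chosen after seeing the data. The members and the other lists were chosen with earlier results of these data known. The naming rule took all 10 members, up to 4 genes of each other list per comparison with the smallest adjusted p, and for likeness the 5 genes per tissue with a mean value of at least 2 that correlated best with the members' mean. No 2 libraries held identical values. Gene lengths came from GENCODE M21 for 99.3% of genes.

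Marrow and spleen libraries of a treatment share numbers, and the labels do not say that a number is 1 mouse. Of the 15 same-numbered pairs, 5 had a correlation of deviations over 0.1, so the number was a block only in an alternative fit.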

Additional observations from a re-analysis of the deposited data

Results flagged for a closer look

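Of 60 sets of values, each 1 gene in 1 group of 4 or more libraries, 3 held a library far from the others, where chance gives about 5%. Stab2 in spleen was 29.5 in control C4 against 24.4 to 24.5 in the other controls. Kdr in marrow after 10 defeats was 0.375 in library D5 against 0.244 to 0.273. Plvap in marrow after rest was 2.75 in library D1 against 5.87 to 6.46, and D1 was the lowest of its group for all 10 genes. By limma's test of the difference in the effect of 10 defeats, spleen minus marrow, 5 genes differed between the tissues. These were Kdr (-1.30, adjusted p = 0.000957), Cdh5 (-1.46, adjusted p = 0.0103), Stab1 (-1.03, adjusted p = 0.0304), Flt4 (-1.0015, adjusted p = 0.0374) and Tie1 (-1.16, adjusted p = 0.0387). Leaving out the 5 spleen libraries that stood apart in length slope, of which 4 are libraries after 10 defeats, Kdr alone was called (-0.71).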

How the results depend on the processing

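Counts of called members are given here, and no alternative reversed a called direction. After 4 defeats in marrow, quantile normalization and equal totals each left 1. After 10 defeats in marrow, quantile normalization left 3. For rested marrow against control, library weights gave 7 of 8, Kdr and Emcn included, and fits of only the groups compared gave 1. For spleen, fits of only the groups compared gave 1 after 1 defeat and 2 for rested against control. The latter count was 0 with a pseudocount of 0.1, with or without the filter, and 6 with library weights. For rested spleen against 10 defeats, library weights gave 9. The difference in the effect of 10 defeats between tissues was called for 3 members with a pseudocount of 0.1, 2 without the filter, 0 with both, 3 with the length trend removed and 9 with library weights. For the step from 10 defeats to rest, library weights gave 2. Without the 5 steep spleen libraries the counts were 5 for 10 defeats and 3 for rested against control in spleen, 1 for the difference in effect and 3 for that in step. The cause of these shifts was not tested, except that fewer samples enter where libraries or groups are left out.

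Leaving out 1 library at a time gave, in marrow, 0 to 0 members after 1 defeat, 1 to 3 after 4 defeats, 2 to 6 after 10, 0 to 0 for rested against control, 2 to 2 for 10 defeats against 1, and 6 to 8 for rested against 10. In spleen it gave 0 to 0 after 1 and after 4 defeats, 9 to 10 after 10, 0 to 1 for rested against control and 0 to 4 for rested against 10. It gave 9 to 9 between control tissues, 2 to 7 for the difference in effect and 0 to 0 for that in step. The marrow range of 6 to 8 counts Kdr and Emcn, which met the filter through rested libraries. Kdr fell below the filter, and so out of the test, whenever a rested library with a Kdr value of at least 1 was left out. With the shared number of marrow and spleen libraries as a replicate block (consensus correlation 0.0113), the counts for both tissues stayed at 9, 5 and 0. Of the 15 same-numbered pairs, 5 correlated over 0.1 and 8 matched best by their own number. A planned rule leaving out libraries whose length slope lay over 3 median absolute deviations from the tissue median selected 0 libraries and gave no value. Depth is unknown and limits Tek, Flt4, Kdr and Emcn in marrow most.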
